A study of Mus musculus with 6 samples.

Results

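The 33 genes described here encode the enzymes that bring pyruvate into mitochondria, turn it into acetyl-CoA, run the citrate cycle and carry reducing equivalents through the malate-aspartate shuttle. They were chosen as a list by function, out of 35498 genes in the tables, and all 33 were measured and passed the filter on low counts. Poly-A RNA was sequenced from ventricle below the ligature of infarcted hearts, in 6 libraries, 7 days after the left anterior descending artery was tied (C57BL/6J animals, 8 to 10 weeks old). The control group (CTL, n = 3) has the genotype Postn CreER+/-; Runx1 WT, and the knockout group (Runx1_FB_KO, n = 3) has Postn CreER+/-; Runx1 fl. Both groups were infarcted, both carry the tamoxifen-inducible recombinase driven by the periostin promoter, and both ate a tamoxifen diet from surgery to collection. Recombination is therefore limited to cells that express periostin, mainly activated fibroblasts, while RNA came from whole tissue. The females were CTL replicate 1 with Runx1_FB_KO replicates 2 and 3, and the males were CTL replicates 2 and 3 with Runx1_FB_KO replicate 1. The labels do not say that the libraries of a group came from separate animals, so the p-values measure the spread between these libraries.

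Pyruvate enters mitochondria through a carrier made of Mpc1 and Mpc2, and the pyruvate dehydrogenase complex commits it to oxidation. Kinases switch the complex off by phosphorylation and phosphatases switch it back on, which sets how far a heart burns carbohydrate rather than fat. The citrate cycle then oxidises acetyl-CoA to feed the respiratory chain, and cardiomyocytes, packed with mitochondria, hold high levels of its enzymes.

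The libraries held 16598561 to 19987279 estimated reads. The targeted gene, Runx1, was at 96.4, 86.9 and 85.5 CPM (counts per total library count, scaled by TMM) in CTL replicates 1, 2 and 3 and at 17.5, 10.9 and 67.4 CPM in Runx1_FB_KO replicates 1, 2 and 3. It was lower in each knockout library, with a log2 fold change of -1.48 (SE 0.63, edgeR adjusted p = 0.154) that did not pass the threshold of 0.05. In whole tissue this level cannot tell recombination from fewer cells that express Runx1. By its Runx1 level Runx1_FB_KO replicate 3 lay closest to CTL, and results are given with and without it. Without it Runx1 had a log2 fold change of -2.61. That value is no test of the knockout, since the library was singled out by its Runx1 level. Values and counts without this library are likewise descriptions for every gene, since it was left out after the data were seen. Mitochondrially encoded genes took 5.36% to 7.11% of the reads in CTL, against 10.37% to 24.49% in the knockout.

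Most genes of the list were higher in the knockout libraries, and each step held such genes. All 3 knockout values lay above all 3 CTL values for 28 of the 33 genes, where 20.2% of the 14237 genes tested did so, and below them for 3 (Idh1, Me2 and Pdk3), where 18.8% did. The median log2 fold change of the 33 genes was 2.0, against -0.06 over all genes tested. None passed the threshold in edgeR: 0 of 33 were higher and 0 lower at an adjusted p under 0.05 (0.0% of all genes in either direction), and the adjusted p ran from 0.0682 to 0.376. At an unadjusted p under 0.05 there were 29 higher (19.3% of all genes) and 2 lower (13.1%), and at an adjusted p under 0.1 there were 28 higher (12.5%) and 0 lower (3.74%). Without the filter on low counts edgeR called 25 higher (4.21% of 20211 genes) and 0 lower (0.193%). DESeq2 called 29 higher (14.6% of 14313 genes) and 1 lower (5.04%). Without Runx1_FB_KO replicate 3 edgeR called 29 higher (25.1% of 14609 genes) and 2 lower (22.5%), and the median was 2.40. The counts of that fit are no test, since the library left out was chosen for lying closest to CTL.

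The knockout libraries kept a fixed order over most of the list. Runx1_FB_KO replicate 2 was the highest of the knockout libraries for 29 of the 33 genes, and Runx1_FB_KO replicate 3 the lowest for 31. The full order of replicate 2, then 1, then 3, all above CTL, held for 27 genes, where 13.9% of all genes tested showed it. Relative to the CTL mean, the median of the 33 genes stood at 2.18, 2.52 and 0.82 on the log2 scale in Runx1_FB_KO replicates 1, 2 and 3, and between -0.13 and 0.14 in CTL.

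**Figure D1:**
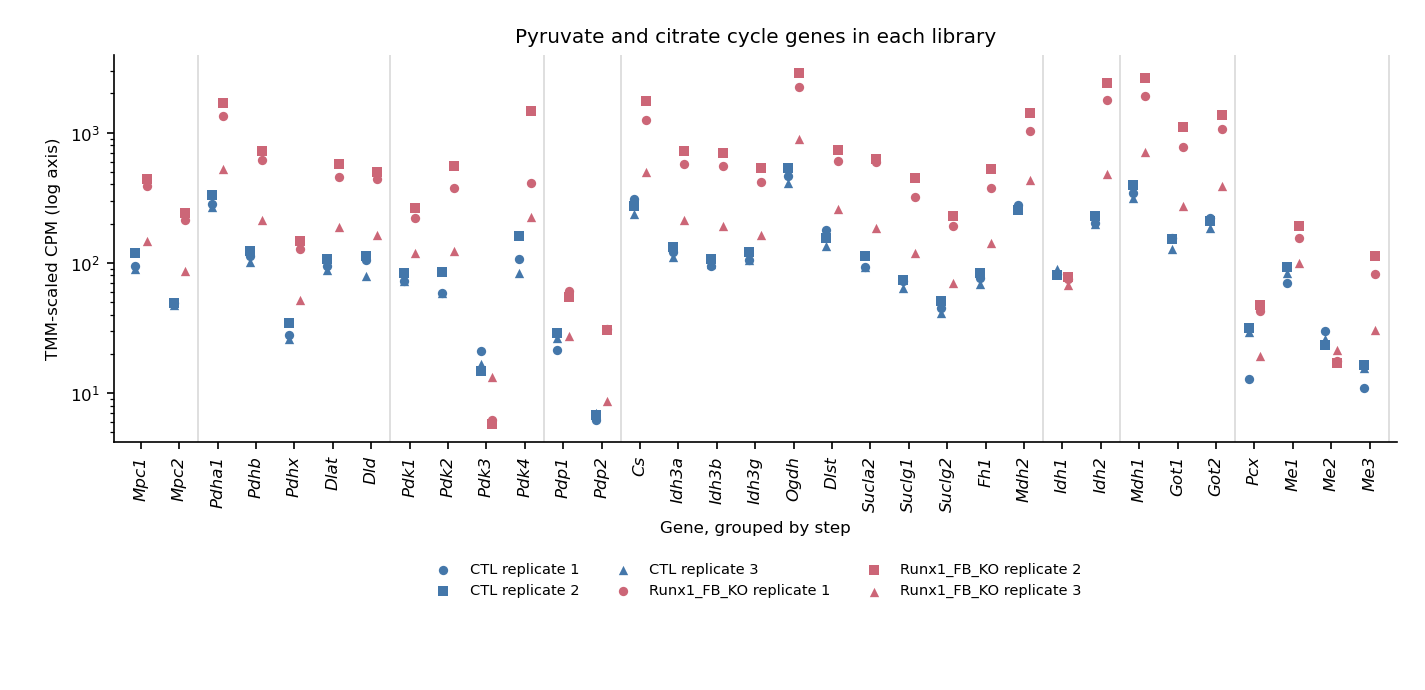
TMM-scaled CPM (log axis) of the 33 genes in each of the 6 libraries, grouped by step, with blue for CTL, red for Runx1_FB_KO and the marker shape for the replicate. The red points lie above the blue ones for 28 genes, Runx1_FB_KO replicate 3 (triangle) usually lies nearest to CTL, and Idh1, Me2 and Pdk3 lie below CTL.

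Markers of heart muscle moved in the same order. All 10 cardiomyocyte markers, among them Tnnt2, Myh6, Actc1 and Ryr2, were above CTL in each knockout library, and none was at 0 in any library. Their summed level was 10889 to 13652 CPM in CTL, against 27070 to 99361 CPM in the knockout. Their median relative to CTL was 3.20, 3.57 and 1.48 on the log2 scale in Runx1_FB_KO replicates 1, 2 and 3, and the median of their log2 fold changes was 2.97, with the lowest at 1.51. All 33 genes of the list had a log2 fold change below that median, and 7 had one below the lowest marker. Activated fibroblast markers had a summed level of 26296 to 28578 CPM in CTL, against 6411 to 22357 CPM in the knockout, with 5 of 8 below CTL in each knockout library. Macrophage markers had 1451 to 1973 CPM in CTL, against 633 to 1406 CPM in the knockout, with 4 of 8 below CTL, and none of the 8 was at 0. The summed levels of endothelial (1187 to 1401 CPM in CTL, 1553 to 3532 CPM in the knockout) and skeletal muscle markers (338 to 577 CPM, then 1381 to 2648 CPM) were higher in each knockout library, but their genes were divided. Of the 5 endothelial markers 2 were above CTL and 1 (Pecam1) just below it, nearly level (log2 fold change -0.037, edgeR adjusted p = 0.879). Of the 5 skeletal muscle markers 2 (Acta1 and Ckm) were above and 1 (Tnnt3) below. Ckm is also on the cardiomyocyte list, so the sums of these lists are not independent. The median log2 fold change was 0.53 for the endothelial list and -0.40 for the 4 skeletal muscle genes tested. The sums of T and NK cell (6.56 to 12.5 CPM, then 2.03 to 2.81 CPM) and neutrophil markers (25.6 to 45.7 CPM, then 7.14 to 21.5 CPM) were lower, with 3 of 4 and 1 of 4 genes below CTL. Of all genes tested, 20.2% lay above CTL in each knockout library and 18.8% below it. The single genes below CTL in the endothelial, skeletal muscle and neutrophil lists are near that share. The part of these cell types in the results below was not tested. In whole tissue, fewer cells of a type and less RNA per cell cannot be told apart.

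Scaling sets the size of these differences. The TMM factors were 1.157 to 1.214 in CTL, against 0.732 to 1.078 in the knockout. With library size alone the median over all genes tested was -0.52 and that of the 33 genes 1.43. No gene of the list changed sign under RLE, upper quartile or library size scaling, although Pcx was at 0.01 with library size alone. In the ratio of mean TPM (a per-length unit that sums to the same total in each library, with no further scaling) Pcx was the only gene whose sign differed, at -0.26.

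The mitochondrial pyruvate carrier was higher in the knockout libraries in both subunits. Mpc1 was at 95.1, 118 and 89.9 CPM in CTL replicates 1, 2 and 3 and at 391, 442 and 148 CPM in Runx1_FB_KO replicates 1, 2 and 3. Mpc2 was at 48.9, 48.8 and 47.8 CPM in CTL and at 214, 243 and 85.9 CPM in the knockout. Every knockout value lay above CTL for both genes. The log2 fold changes were 1.69 (SE 0.41, edgeR adjusted p = 0.0694) for Mpc1 and 1.90 (SE 0.37, edgeR adjusted p = 0.0682) for Mpc2. Within a library, the ratio of Mpc1 to Mpc2 in TPM was 1.83, 2.32 and 2.05 in CTL, against 1.76, 1.60 and 1.64 in the knockout, a slightly lower range that did not overlap CTL.

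All 5 genes of the pyruvate dehydrogenase complex itself were above CTL in each knockout library, with log2 fold changes within a narrow range of 1.88 to 2.20. Pdha1 and Pdhb encode the subunits of the decarboxylase, Dlat the acetyltransferase core, Pdhx the protein that anchors the dehydrogenase, and Dld the lipoamide dehydrogenase that other complexes share. Pdha1, on chromosome X, was at 284, 334 and 270.4 CPM in CTL and at 1340, 1696 and 523 CPM in the knockout. This gave a log2 fold change of 2.0 (SE 0.44, edgeR adjusted p = 0.0682). Dlat was at 94.9, 108 and 88.1 CPM in CTL and at 459, 579 and 189 CPM in the knockout, with a log2 fold change of 2.08 (SE 0.41, edgeR adjusted p = 0.0682). The other members, Pdhb, Pdhx and Dld, had log2 fold changes of 2.20, 1.88 and 1.88. Per length, the complex was not evenly supplied: in CTL Pdha1 was at 183 ± 16.4 TPM and Pdhb at 142 ± 10.4 TPM, against 72.3 ± 10.5 TPM for Dld, 61.2 ± 7.24 TPM for Dlat and 24.1 ± 6.23 TPM for Pdhx (SD, n = 3). The same order held in the knockout for the means, from 407 ± 120 TPM for Pdha1 and 361 ± 115 TPM for Pdhb down to 48.5 ± 10.7 TPM for Pdhx. Between these lay Dld (147 ± 40.3 TPM) and Dlat (132 ± 34 TPM), with Dld above Dlat in each knockout library.

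The kinases did not move together. Pdk1, Pdk2 and Pdk4 were above CTL in each knockout library and Pdk3 was below it. Pdk4, the isoform that fasting and fatty acids induce in muscle, was at 107, 160 and 83.7 CPM in CTL and at 409, 1467 and 226 CPM in the knockout. Runx1_FB_KO replicate 2 stood far above the other knockout libraries. For Pdk4 the log2 difference was 2.58 (SE 0.71, edgeR adjusted p = 0.081), and 1.45 without Runx1_FB_KO replicate 2. Pdk2, the widely expressed isoform, was at 59.1, 85.2 and 58.4 CPM in CTL and at 374, 555 and 123 CPM in the knockout, with a log2 fold change of 2.37 (SE 0.53, edgeR adjusted p = 0.0682). Pdk1, which hypoxia induces, was at 73.1, 83.3 and 72.3 CPM in CTL and at 223, 263 and 119 CPM in the knockout. It had the smallest difference of these 3 kinases, with a log2 fold change of 1.40 (SE 0.30, edgeR adjusted p = 0.0682). Pdk3, on chromosome X, had the lowest TPM of the kinases in every library and was at 21.2, 14.8 and 16.9 CPM in CTL and at 6.15, 5.78 and 13.4 CPM in the knockout. It was the only kinase with a negative log2 fold change, -1.05 (SE 0.36, edgeR adjusted p = 0.112), and -1.52 without Runx1_FB_KO replicate 3.

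Since the kinases differ in opposite directions, their make-up within a library differed as well. Of the summed TPM of the 4 kinases, Pdk3 held 11.3%, 6.62% and 11.4% in CTL replicates 1, 2 and 3, against 0.906%, 0.395% and 4.38% in Runx1_FB_KO replicates 1, 2 and 3. Pdk1 held 22.7%, 14.8% and 21.3% in CTL, against 12.5%, 6.74% and 14.7% in the knockout. Both shares were lower in each knockout library than in any CTL library, but for Pdk1 CTL replicate 2 and Runx1_FB_KO replicate 3 were nearly equal. Protein-coding transcripts held 76.4%, 96.3% and 80.6% of the Pdk1 reads in CTL, against 99.4%, 99.8% and 99.8% in the knockout. TPM depends on how reads are divided between transcripts, and the part of this in the Pdk1 share was not tested. With the length offset the log2 fold change of Pdk1 was 1.08. Pdk4 held 34.2%, 41.05% and 31.3% in CTL, against 34.4%, 57.01% and 42.5% in the knockout, so its groups overlapped. Pdk2 and Pdk4 were nearly level with each other in CTL, where the ratio of Pdk4 to Pdk2 was 1.08, 1.09 and 0.871. In the knockout that ratio was 0.660, 1.59 and 1.11, with no common direction (exact two-sided permutation test, p = 0.8). For Pdk3 against Pdk2 the ratio was 0.355, 0.176 and 0.318 in CTL, against 0.0174, 0.0110 and 0.114 in the knockout, all lower.

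The phosphatases differed widely in level per length. Pdp1, the calcium-stimulated isoform, was at 15.7 ± 2.7 TPM and Pdp2 at 1.96 ± 0.164 TPM in CTL (SD, n = 3). Pdp2 was at 6.18, 6.83 and 7.06 CPM in CTL and at 31.2, 30.7 and 8.73 CPM in the knockout, all higher, with a log2 fold change of 1.81 (SE 0.46, edgeR adjusted p = 0.0741). Pdp1 was at 21.3, 29.1 and 26.5 CPM in CTL and at 60.8, 54.3 and 27.5 CPM in the knockout. Runx1_FB_KO replicate 3 lay inside the CTL range, with a log2 fold change of 0.89 (SE 0.30, edgeR adjusted p = 0.112). Pdp1 made up 87.6% to 90.03% of the phosphatases' summed TPM in CTL, and 80.5%, 79.3% and 87.5% in Runx1_FB_KO replicates 1, 2 and 3.

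The promoters of the kinases and isocitrate dehydrogenases that went opposite ways are shown to let their proximal sequence be compared. Promoters matched 30 of the 33 genes in RefSeq (GRCm38.p6), and the stretch from 200 to 56 bases before the RefSeq start is printed 5′ to 3′ on the minus strand, on which all 4 of these genes lie. Capitals mark matches on either strand to CCAAT (the CCAAT box) or GGGCGG (the GC box).
Pdk4 (chr6:5496334-5496478): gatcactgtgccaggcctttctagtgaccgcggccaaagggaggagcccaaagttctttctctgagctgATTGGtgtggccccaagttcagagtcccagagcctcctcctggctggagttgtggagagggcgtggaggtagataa
Pdk3 (chrX:93832206-93832350): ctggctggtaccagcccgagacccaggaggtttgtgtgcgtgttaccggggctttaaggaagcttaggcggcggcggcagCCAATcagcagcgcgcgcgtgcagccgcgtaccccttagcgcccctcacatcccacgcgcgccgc
Idh2 (chr7:80115406-80115550): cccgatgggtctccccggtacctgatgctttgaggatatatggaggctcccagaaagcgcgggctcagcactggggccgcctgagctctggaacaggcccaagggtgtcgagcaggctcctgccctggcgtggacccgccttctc
Idh1 (chr1:65186535-65186679): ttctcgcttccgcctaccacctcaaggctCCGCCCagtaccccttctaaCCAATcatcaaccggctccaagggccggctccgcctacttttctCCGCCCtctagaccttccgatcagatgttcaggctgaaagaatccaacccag
Pdk4 and Pdk3 each hold 1 CCAAT match in this window, Idh1 holds 1 CCAAT match and 2 GC box matches, and Idh2 holds no match to either. Over the same window, CCAAT was found in 16 of the 30 promoters (53.3%) and in 22.5% of all 32851 promoters of the table. GGGCGG was found in 14 (46.7%) and in 21.3% of all. CACGTG (the E-box) was found in 1 (3.33%, all 3.39%) and AAGGTCA (an orphan nuclear receptor motif) in 0 (all 2.39%). Each of the 30 genes gave the promoter nearest to its annotated start. The 32851 promoters were taken without that choice and without limits on gene type or expression. The shares therefore do not compare like with like, and a difference between them cannot be read as a trait of the list. A match is a description of the letters and not a site of binding, and no match says only that these letters are not in this window.

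**Figure D2:**
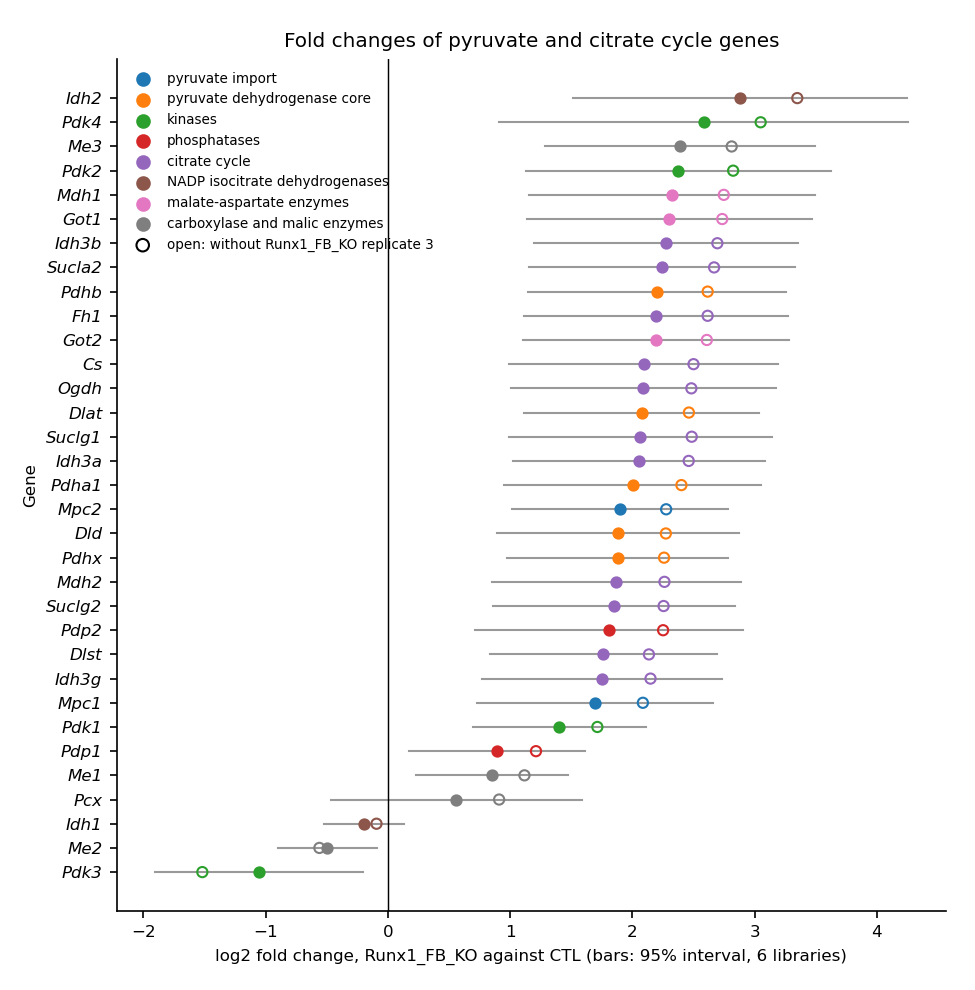
Log2 fold change of each of the 33 genes, Runx1_FB_KO against CTL, coloured by step, with unadjusted 95% intervals from the edgeR fit on 6 libraries and open circles for the fit without Runx1_FB_KO replicate 3. Values run from -1.05 for Pdk3 to 2.88 for Idh2, and Idh1 and Pcx are the genes whose interval includes 0.

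The citrate cycle is represented by 11 genes of the list. Each was above CTL in each knockout library, and the log2 fold changes ran from 1.75 (Idh3g) to 2.27 (Idh3b), with a median of 2.07. Cs, citrate synthase, which opens the cycle, was at 310, 273 and 236 CPM in CTL and at 1257, 1741 and 495 CPM in the knockout. This gave a log2 fold change of 2.09 (SE 0.46, edgeR adjusted p = 0.0682). The NAD-dependent isocitrate dehydrogenase is built from Idh3a, Idh3b and Idh3g. Idh3b was at 94.2, 106 and 98.3 CPM in CTL and at 557, 696 and 194 CPM in the knockout, with a log2 fold change of 2.27 (SE 0.46, edgeR adjusted p = 0.0682). Idh3a had 2.05 and Idh3g 1.75. Per length, Idh3g was the most abundant of these subunits in CTL, at 168 ± 13.8 TPM against 120 ± 7.24 TPM for Idh3b and 105 ± 7.5 TPM for Idh3a. In the knockout Idh3g (307 ± 90.7 TPM) and Idh3b (314 ± 107 TPM) could not be separated.

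The 2-oxoglutarate dehydrogenase genes Ogdh and Dlst had log2 fold changes of 2.09 and 1.76, and Fh1, fumarase, had 2.20. Mean Ogdh was 2004 ± 1011 CPM in the knockout, against 471 ± 64.6 CPM in CTL (SD, n = 3). Succinyl-CoA ligase pairs the shared subunit Suclg1 with either Sucla2, which makes the ATP-forming enzyme, or Suclg2, which makes the GTP-forming enzyme. Their log2 fold changes were 2.07, 2.24 and 1.85. The ratio of Sucla2 to Suclg2 in TPM was 2.83, 3.06 and 3.18 in CTL, against 4.39, 3.91 and 3.83 in the knockout. The ratio was higher in each knockout library, by 0.42 on the log2 scale, a difference that was also present in Runx1_FB_KO replicate 3.

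The isocitrate dehydrogenases that use NADP had log2 fold changes of opposite sign. Idh2 (chromosome 7, 80094846 to 80115392) encodes the mitochondrial enzyme and Idh1 (chromosome 1, 65158616 to 65186500) the enzyme of cytosol and peroxisomes, both on the minus strand of GRCm38. Idh2 was at 204, 230 and 198 CPM in CTL and at 1770, 2398 and 478 CPM in the knockout. It had the largest log2 fold change of the list, 2.88 (SE 0.58, edgeR adjusted p = 0.0682), and 3.35 without Runx1_FB_KO replicate 3. Idh1 was at 81.6, 80.7 and 90.3 CPM in CTL and at 75.7, 77.7 and 67.4 CPM in the knockout. The knockout values lay just below CTL, and the log2 fold change was -0.19 with a 95% interval from -0.52 to 0.13 (edgeR adjusted p = 0.34). With library size alone it was -0.67. The ratio of Idh1 to Idh2 does not depend on scaling, and was 0.275, 0.246 and 0.324 in CTL, against 0.0313, 0.0235 and 0.102 in the knockout. Of the summed TPM of the 5 isocitrate dehydrogenase genes, Idh2 held 33.2% to 34.8% in CTL, against 51.6%, 53.7% and 42.7% in Runx1_FB_KO replicates 1, 2 and 3. Idh1 held 8.42% to 10.8% in CTL, against 1.61%, 1.26% and 4.36% in the knockout. Idh2 also stood higher against its NAD-dependent counterpart: the ratio of Idh2 to Idh3a was 2.28, 2.23 and 2.29 in CTL, where the libraries hardly differed, and 3.99, 4.37 and 2.97 in the knockout.

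The malate-aspartate shuttle moves reducing equivalents from cytosol to mitochondria through a malate dehydrogenase and an aspartate aminotransferase on either side of the membrane. Mdh1, the cytosolic dehydrogenase, was at 342, 398 and 313 CPM in CTL and at 1929, 2647 and 706 CPM in the knockout, with a log2 fold change of 2.33 (SE 0.49, edgeR adjusted p = 0.0682). Mdh2, the mitochondrial dehydrogenase that also closes the citrate cycle, had 1.87 (SE 0.43, edgeR adjusted p = 0.0682). Both were above CTL in each knockout library. The ratio of Mdh1 to Mdh2 in TPM was 0.799, 1.20 and 0.867 in CTL, against 1.43, 1.40 and 1.23 in the knockout. Those of CTL replicate 2 and Runx1_FB_KO replicate 3 were nearly equal. The aminotransferases Got1 (cytosol) and Got2 (mitochondria) had log2 fold changes of 2.30 and 2.19, and their ratio stayed near even, at 0.883, 0.920 and 0.873 in CTL, against 0.905, 1.01 and 0.875 in the knockout (exact two-sided permutation test, p = 0.6). Got1 and Got2 thus had the most similar differences of the cytosolic and mitochondrial pairs compared.

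The genes that feed carbon in or out at pyruvate and malate had log2 fold changes from -0.49 to 2.39. Pcx, pyruvate carboxylase, was at 12.9, 31.6 and 29.5 CPM in CTL and at 42.9, 47.1 and 19.2 CPM in the knockout. CTL replicate 1 and Runx1_FB_KO replicate 3 were the lowest, and the groups overlapped. The log2 fold change was 0.56 with a 95% interval from -0.47 to 1.59 (edgeR adjusted p = 0.376), and 0.25 without CTL replicate 1. Adipocytes express pyruvate carboxylase strongly, and adipocyte markers varied between libraries: Adipoq was at 0, 39.8 and 26.6 CPM in CTL replicates 1, 2 and 3 and at 0.524, 17.02 and 6.07 CPM in the knockout. Adipoq, Plin1, Cidec and Lep had 0 reads in CTL replicate 1, the library with the lowest Pcx, and Lep also in CTL replicate 3. The summed level of the 5 adipocyte markers was 0.4 to 307 CPM in CTL, against 3.27 to 112 CPM in the knockout, with 0 of 5 apart between the groups. The lowest knockout sum, 3.27 CPM, was that of Runx1_FB_KO replicate 1, where Pcx was at 42.9 CPM. The highest sum, 307 CPM, was that of CTL replicate 2, where Pcx was at 31.6 CPM. The part of adipocytes in the Pcx values was not tested.

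Malic enzymes turn malate into pyruvate, Me1 in the cytosol and Me2 and Me3 in mitochondria, and the 3 genes went different ways. Me3 was at 10.8, 16.4 and 15.6 CPM in CTL and at 82.6, 112 and 30.2 CPM in the knockout, with a log2 fold change of 2.39 (SE 0.47, edgeR adjusted p = 0.0682). Most reads of Me3 were given to transcripts annotated as noncoding: a retained intron transcript (Me3-203) held 43.3% and a processed transcript (Me3-201) held 45.4% of the reads pooled over libraries, and the protein-coding transcript held 6.16%. Me1 was at 70.6, 92.3 and 84.1 CPM in CTL and at 156, 191 and 99.0 CPM in the knockout, all higher, with a log2 fold change of 0.85 (SE 0.26, edgeR adjusted p = 0.0953). Me2 was at 29.8, 23.2 and 25.9 CPM in CTL and at 17.6, 17.02 and 21.3 CPM in the knockout. All knockout values were lower, and Me2 had a log2 fold change of -0.49 (SE 0.17, edgeR adjusted p = 0.115). Of the summed TPM of the malic enzymes, Me3 held 21.1%, 22.5% and 22.6% in CTL, against 49.1%, 52.9% and 33.9% in the knockout. Me2 held 28.9%, 18.7% and 20.7% in CTL, against 5.48%, 3.96% and 12.2% in the knockout. The share of Me1 overlapped between the groups, at 49.9% to 58.9% in CTL, against 43.2% to 53.9% in the knockout.

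**Figure D3:**
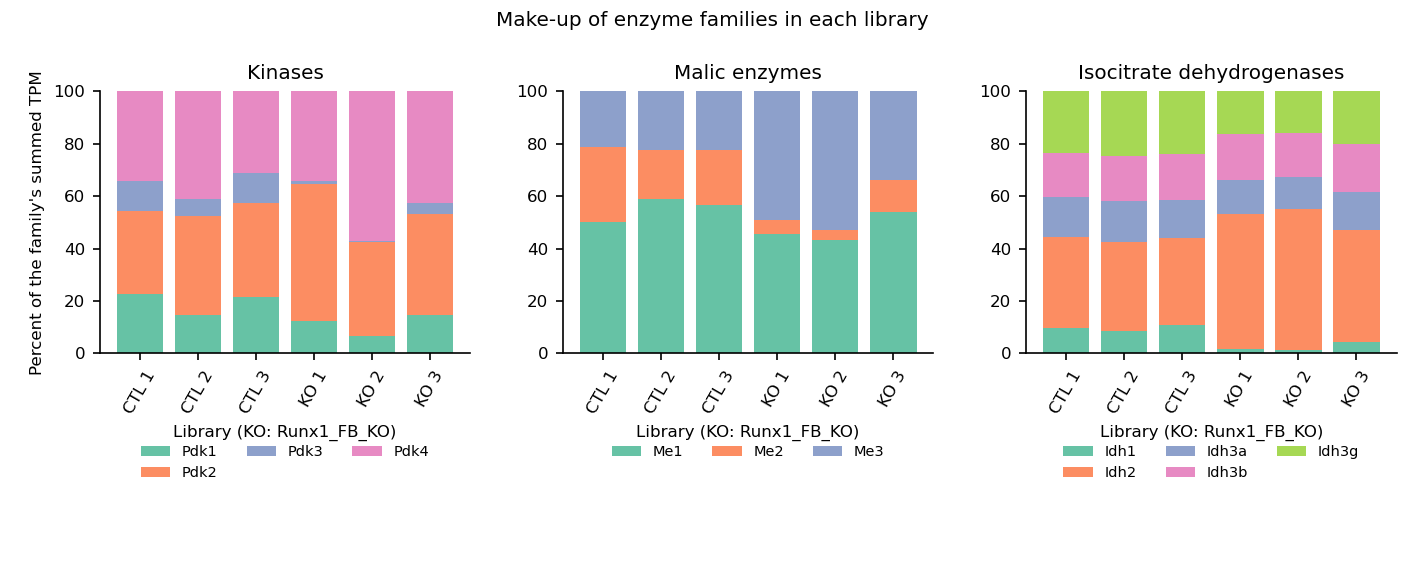
Percent of the summed TPM of the kinases, the malic enzymes and the isocitrate dehydrogenases that each gene holds in each library (stacked bars, 3 CTL and 3 Runx1_FB_KO libraries). Pdk3, Me2 and Idh1 take smaller shares and Me3 and Idh2 larger shares in every knockout library, with Runx1_FB_KO replicate 3 between CTL and the other knockout libraries. Most reads of Me3 were given to transcripts annotated as noncoding.

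Within-library ratios were compared for 13 pairs of enzymes, in which scaling cancels out. In 10 pairs the groups did not overlap, and each had p = 0.1 by an exact two-sided permutation test (adjusted p = 0.13 over the pairs), the smallest that 3 against 3 libraries can give, so no pair could pass the threshold. The largest differences on the log2 scale were those of Pdk3 to Pdk2 (-3.24), Me2 to Me3 (-2.80) and Idh1 to Idh2 (-2.73). Pcx to Pdha1 had -1.27, Me1 to Me3 had -1.23 and Pdk1 to Pdk2 had -1.09. Most Me3 reads were given to transcripts annotated as noncoding, which limits what the pairs with Me3 say about the enzyme. The groups overlapped for Pdp1 to Pdp2 (-0.69, p = 0.2 by the same exact permutation test), Got1 to Got2 and Pdk4 to Pdk2.

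**Figure D4:**
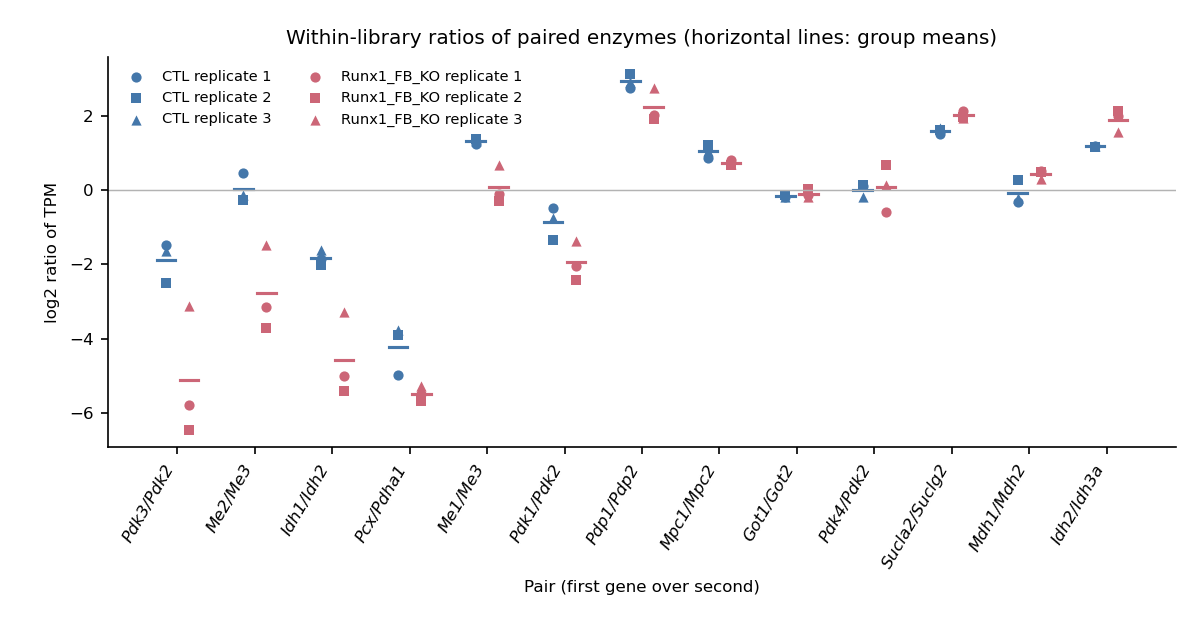
Log2 ratio of TPM within each library for 13 pairs of enzymes, ordered by the difference between groups, with blue for CTL, red for Runx1_FB_KO, the marker shape for the replicate and horizontal lines for group means. The difference runs from -3.24 for Pdk3 to Pdk2 to 0.72 for Idh2 to Idh3a, and the groups overlap for Pdp1 to Pdp2, Got1 to Got2 and Pdk4 to Pdk2.

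Per length, the order of the genes by mean TPM was similar in both groups, with exchanges near the top. In CTL Mdh2 (374 ± 20.9 TPM), Mdh1 (354 ± 57.8 TPM), Mpc1 (244 ± 29 TPM) and Idh2 (237 ± 13.4 TPM) were highest. Neither Mdh2 and Mdh1 nor Mpc1 and Idh2 kept the same order in every CTL library. In the knockout Mdh1 (1029 ± 373 TPM) and Idh2 (919 ± 434 TPM) came before Mdh2 (750 ± 235 TPM) by mean (SD, n = 3). Idh2 came before Mdh2 in Runx1_FB_KO replicates 1 and 2 and after it in replicate 3. Mdh1 ranked highest in each knockout library. Idh1 went from place 20 of 33 by its mean in CTL to place 28 in the knockout, and Pdp2 was the lowest in both.

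With sex as a covariate all 33 genes kept their direction, and the lowest adjusted p in edgeR was 0.0979. The X-linked genes had log2 fold changes of 2.06 for Pdha1, 1.81 for Idh3g and -1.25 for Pdk3 in that fit.

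Another 37 genes of the same pathways, not on the list, gave a wider picture. In edgeR 0 passed the threshold in either direction. All knockout values lay above CTL for 22 (20.2% of all genes tested) and below for 1 (18.8%), and the median log2 fold change was 1.31, against -0.06 over all genes. Without Runx1_FB_KO replicate 3, 27 were higher (25.1% of all genes) and 3 lower (22.5%) past the threshold, counts that describe that fit and are no test. Those with the smallest p among the higher genes were Slc25a13, the mitochondrial aspartate-glutamate carrier of the shuttle (2.25, SE 0.42), Mrps36, a subunit linked to the 2-oxoglutarate dehydrogenase complex (1.56, SE 0.32), Ldhb, the heart-type lactate dehydrogenase (2.67, SE 0.55), Nnt, the transhydrogenase (2.75, SE 0.57), and Slc16a1, a monocarboxylate transporter (2.13, SE 0.44), each with an edgeR adjusted p of 0.0682. Nnt is annotated as a pair of overlapping gene models that share reads, so its value is uncertain. Among the lower genes the smallest p belonged to Pck2, the mitochondrial phosphoenolpyruvate carboxykinase, at 50.5, 49.9 and 54.6 CPM in CTL, against 21.2, 22.9 and 40.4 CPM in the knockout (log2 fold change -0.87, SE 0.26, edgeR adjusted p = 0.091). Slc25a1, the citrate exporter, and Slc16a3, a lactate exporter of glycolytic cells, had -0.83 and -1.05 with overlapping groups. Pck1 and Slc25a10 had -2.35 (SE 1.66) and -0.30 (SE 0.25), also with overlapping groups, and Pck1 had 0 reads in CTL replicate 1.

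Genes that regulate these enzymes were divided. Of 14 regulators 0 passed the threshold in edgeR in either direction, and all knockout values lay above CTL for 7 (20.2% of all genes tested) and below for 0 (18.8%). Ppargc1a, a coactivator of mitochondrial genes, was at 11.6, 28.5 and 17.01 CPM in CTL and at 185, 323 and 46.9 CPM in the knockout (log2 fold change 3.28, SE 0.71, edgeR adjusted p = 0.0682). Ppara, the fatty acid receptor that acts on Pdk4, had 2.56 (SE 0.52). Ppargc1b, Esrra, Esrrb and Esrrg had 2.19, 1.45, 2.34 and 2.06, and the mitochondrial deacetylase Sirt3 had 1.55. The groups overlapped for Foxo3 (0.75), Pparg (0.21), Mcu (0.10), Ppard (0.06), Foxo1 (-0.01), Hif1a (-0.18) and Myc (-0.59).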

How the data were processed

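Groups, replicate numbers and sex came from the labels. For each library the authors deposited a Salmon table of 116546 transcripts, giving estimated counts with TPM and an effective length. Salmon 1.5.2, DESeq2 1.44.0 and the build mm10 (GRCm38) are named per the submitters' processing notes. Which annotation release they used is not given in the sources used here. Transcripts were matched to GENCODE M21 genes by identifier without version (115977 matched, and the 569 others, with 0.0777% to 0.102% of reads, were left out). Estimated counts were summed per gene and rounded, filtered with filterByExpr and scaled by TMM. Deposited TPM was summed per gene for ratios and levels between genes.

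Genotype was the only term in the quasi-likelihood test of edgeR 4.0.16 between the groups, adjusted by Benjamini-Hochberg over 14237 genes, with a threshold of 0.05. Standard errors are the absolute log2 fold change over the square root of F. Ratios used log2(TPM + 0.1) and exact permutation tests (scipy 1.17.1). DESeq2 1.42.0 and limma-voom (limma 3.58.1) were alternatives. Of genes simulated with a change of 1, 2 or 3 on the log2 scale (14037 genes tested, 200 changed), 10.6%, 58.5% and 90.2% were recovered. Of 13845 genes simulated without a change, 9 were called. The simulated counts were drawn independently for each gene, without the order that the knockout libraries shared over many genes. These rates therefore do not give the power of the real comparison, in which 0 genes passed.

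The genes, lists and tests were chosen with earlier results of these data known. Described in full are the 2 genes with the largest and the 2 with the smallest log2 fold change, the 5 with the smallest p, the first of each step, and all kinases, phosphatases and malic enzymes; of the other pathway genes, for either direction the 5 of smallest p; and all regulators. Cell type marker lists were summed as CPM. Replicate numbers were not used to pair the samples, since they are not stated to mark a shared animal or day.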

Additional observations from a re-analysis of the deposited data

How the results depend on the processing

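The count of genes past the threshold depended on the library Runx1_FB_KO replicate 3, the test and the filter. In place of 0 of the 33 genes, edgeR called 25 without the filter on low counts and 28 at a threshold of 0.1, DESeq2 called 30, and edgeR without Runx1_FB_KO replicate 3 called 31. For all genes these counts were 889, 2311, 2810 and 6947, and for the other pathway genes 18, 22, 24 and 30. The counts without Runx1_FB_KO replicate 3 are no test, since it was chosen for lying closest to CTL. With any other library left out the counts were 0, so leaving out each library in turn gave 0 to 31 for the 33 genes, 0 to 6947 for all genes and 0 to 30 for the other pathway genes. The counts were also 0 with limma-voom, the other scalings, the stricter filter, the length offset, sex as a covariate and mitochondrially encoded genes left out. The median log2 fold change of the 33 genes ran from 1.63 (without Runx1_FB_KO replicate 2) to 2.40 (without Runx1_FB_KO replicate 3) over the libraries left out in turn, and was 1.43 with library size alone. No gene of the list turned direction under any fit. The ratio of Pdk4 to Pdk2 (0.06 on the log2 scale) ran from -0.24 to 0.40 over the libraries left out, with -0.05 without CTL replicate 3, and that of Got1 to Got2 (0.06) from -0.00283 (without Runx1_FB_KO replicate 2) to 0.10. With the replicate number as a block, edgeR called 0 genes of the list, 0 other pathway genes and 0 of all genes, and the median of the 33 was 1.85. Same-numbered samples deviated together at correlations of -0.051, 0.113 and 0.081 for numbers 1, 2 and 3. Over all combinations of a CTL and a knockout sample the correlations ran from -0.174 to 0.128. With 3 libraries in each group these values cannot decide whether same-numbered samples shared a day, and the labels do not state a pairing. Precision is limited by the 3 libraries of each group and by the reads of scarce genes such as Pdp2.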
